A study of Mus musculus with 8 samples.

Results

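The genes described here encode the nuclear part of the mitochondrial respiratory chain and ATP synthase. They were chosen by symbol among the protein-coding genes of the count table (Nduf, Sdh, Uqcr, Cox4 to Cox8 and Atp5 names, with pseudogenes left out), which gave 93 genes of 49671 in the table. Of these, 84 encode subunits (38 of complex I, 4 of complex II, 8 of complex III, 18 of complex IV and 16 of complex V), and 9 encode Ndufaf1 to Ndufaf8, which help to assemble complex I, and Atp5s, a coupling factor of ATP synthase, called assembly factors below. Genes were assigned to complexes by symbol alone, which counts Cox7a2l as a subunit of complex IV. The symbols place Ndufa4 and its homolog Ndufa4l2 under complex I, although the Ndufa4 protein is now assigned to complex IV. They miss Cyc1 of complex III and the electron carrier Cycs. A filter on low counts kept 83 of the 93 genes, 75 of them subunits.

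RNA came from 8 mouse tumors, sequenced as total RNA after ribosomal RNA was depleted. All 8 carried 1 genotype, HprtCre; Ewsr1-loxP; Atf1-loxP, in which Cre made from the Hprt locus recombines loxP sites in Ewsr1 and Atf1 and joins them into the fusion gene of clear cell sarcoma. The mice received no drug, and tumors were snap frozen when the primary tumor caused morbidity; the labels give no age or strain and name no untransformed control. The titles call the tumors 1, 2L, 2R, 3, 4a, 4b, 5 and 6 without saying what numbers or suffixes mean or whether each came from its own mouse, so p-values here measure only the spread between these libraries, which may be technical.

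Complexes I and II pass electrons from NADH and succinate to ubiquinone, complex III passes them to cytochrome c, and complex IV passes them to oxygen. Complexes I, III and IV pump protons, and complex V, the ATP synthase, uses the gradient to make ATP. Complex II is wholly encoded in the nucleus, whereas the other complexes combine nuclear subunits with some encoded by mitochondrial DNA. Several complex IV subunits exist as paired isoforms, of which one is common to most tissues and the other belongs to muscle, lung or germ cells.

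Sequencing depth differed, with 4817902 counts in library 3 as the least and 19682149 in 2L as the most. Library 3 stood apart: its TMM factor, the scaling factor between libraries, was 0.394 against 0.830 to 1.36 in the others, and only 6506 of its counts fell on the 93 genes, against 31043 to 179692. Its member values therefore have the widest counting error. Library 2L, and less so library 3, held skeletal muscle RNA: 15 muscle genes summed to 23436 CPM (counts scaled to a common library size) in 2L and 7115 in 3, against 17.9 to 128 in the other 6. In bulk RNA, fewer cells of a type and less RNA per cell cannot be told apart.

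Promoters of the members were read to show what sequence they share. Of the 93 genes, 74 had an entry in RefSeq's promoter table (GRCm38.p6, 250 bases before to 50 after the start), with 79 promoters among them. The letters of a YY1 site, AAGATGGC on either strand, were in 12.7% of member promoters, 4.62% of promoters of all protein-coding genes kept and 2.75% of all 32851 promoters. YY1 is a transcription factor with known sites in respiratory chain genes. In 9 of the 10 members the letters lay on the gene's own strand after the start; among all promoters with the letters this held for 284 of 903. The following stretches show the placement, with the letters in capitals.

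Ndufs7, chr10:80249463-80249490, plus strand: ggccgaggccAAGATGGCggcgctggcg

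Ndufa3, chr7:3617385-3617412, plus strand: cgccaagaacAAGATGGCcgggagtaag

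Ndufc1, chr3:51408916-51408943, minus strand: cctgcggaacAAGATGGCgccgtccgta

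Atp5j2, chr5:145191501-145191528, minus strand: ccaggacttcAAGATGGCgtcactcggt

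Ndufs6, chr13:73328433-73328459, minus strand: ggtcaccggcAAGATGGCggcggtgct

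These letters contain ATG, and in 8 of the 9 members, all but Ndufaf8, that ATG was an annotated start codon in GENCODE M21. The same was true of 168 of the 284 promoters in general. A YY1 site and the sequence around a start codon can therefore not be told apart by these letters. The core letters of an NRF1 site, GCGCATGC, were in 15.2% of member promoters, 5.37% of those of kept protein-coding genes and 2.71% of all promoters. Those of an ETS site, CCGGAAG, were in 22.8%, 18% and 8.86%. NRF1 and the ETS factor GABP are known regulators of respiratory chain genes. The estrogen-related receptor letters TCAAGGTCA were in 2 of the 79 member promoters, 2.53%, in 0.257% of those of kept protein-coding genes and in 0.423% of all promoters.

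ATF1, whose DNA-binding part the fusion retains, binds the cyclic AMP response element, TGACGTCA. These letters were in 4 member promoters, 5.06% of 79, against 3.13% for kept protein-coding genes and 1.79% for all promoters. The 4 genes were Ndufa10, Ndufa11, Ndufb2 and Uqcrfs1. The longer Ndufa11 stretch runs from 170 to 41 bases before the start and holds an NRF1 core as well; capitals mark the element and the overlapping NRF1 letters.

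Ndufa10, chr1:92473808-92473835, minus strand: cactcagtggTGACGTCAtggcagcgcg

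Ndufb2, chr6:39592541-39592568, plus strand: tgcgacgcagTGACGTCAcgggccggga

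Uqcrfs1, chr13:30545328-30545355, minus strand: ggcgtcgcgcTGACGTCAcaaaccctgc

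Ndufa11, chr17:56717592-56717721, plus strand: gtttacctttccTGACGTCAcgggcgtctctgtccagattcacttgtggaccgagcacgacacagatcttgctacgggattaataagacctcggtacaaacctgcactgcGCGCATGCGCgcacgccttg

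A match is a description of letters and not a measured site. Mean levels of the 4 genes, in CPM per kb of exon, were 14.9 for Ndufa10, 20.9 for Ndufa11, 4.72 for Ndufb2 and 36.4 for Uqcrfs1, within the range of the other subunits.

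Subunits of all 5 complexes were abundant relative to other genes. On the scale of mean CPM per kb of exon, the 75 kept subunits had a median of 30.1, at the 92.3 percentile of the 11505 genes kept, whose median was 5.61. By complex the medians were 21.1 for complex I, 27.9 for II, 37.5 for III, 47.4 for IV and 34.7 for V. The 8 kept assembly factors had a median of 4.48, at the 40.96 percentile. Dividing by the longest coding transcript instead of all exons gave 32.4, 46.2, 50.7, 80.8 and 75.5 for complexes I to V, which put complex V above complex III, where exon length had put it below.

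Subunits of the chain were mostly highest in tumor 6 and mostly lowest in tumors 3 and 4b. The level of a library is the median, over the 75 subunits, of log2 CPM minus the gene's own mean over the 8 libraries. It was 0.56 in tumor 6, 0.30 in 4a, 0.06 in 2L, 0.02 in 5, 0.00 in 2R, -0.06 in 1, -0.33 in 4b and -0.58 in 3. Tumor 6 was highest and tumor 3 lowest, a span of 1.14. The median of all genes kept spanned 0.05, which the scaling itself holds near 0. On the same measure glycolysis genes spanned 1.29, regulators of mitochondrial genes 1.47 and hypoxia response genes 1.65. Macrophage markers spanned 2.97 and tricarboxylic acid cycle genes 0.69. A span of this size was thus not limited to the subunits. These lists hold only 6 to 13 genes, however, and a median over fewer genes can vary more. Among larger sets, 394 other nuclear protein-coding genes with coding transcripts of at most 1000 bases spanned 0.61, and 1884 of 1000 to 2000 bases 0.27. The span was 0.87 without library 3 and 0.91 without library 6. Of the 75 subunits, 43 had their highest value in tumor 6, where 16.3% of all genes did, and 39 their lowest in tumor 3, where 31.2% of all genes did. A further 21 were lowest in 4b, where 9.39% of all genes were. These counts are a description, and the order of the libraries was not tested. The median SD of log2 CPM over the libraries was 0.47 for the subunits and 0.51 for all genes kept.

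**Figure D1:**
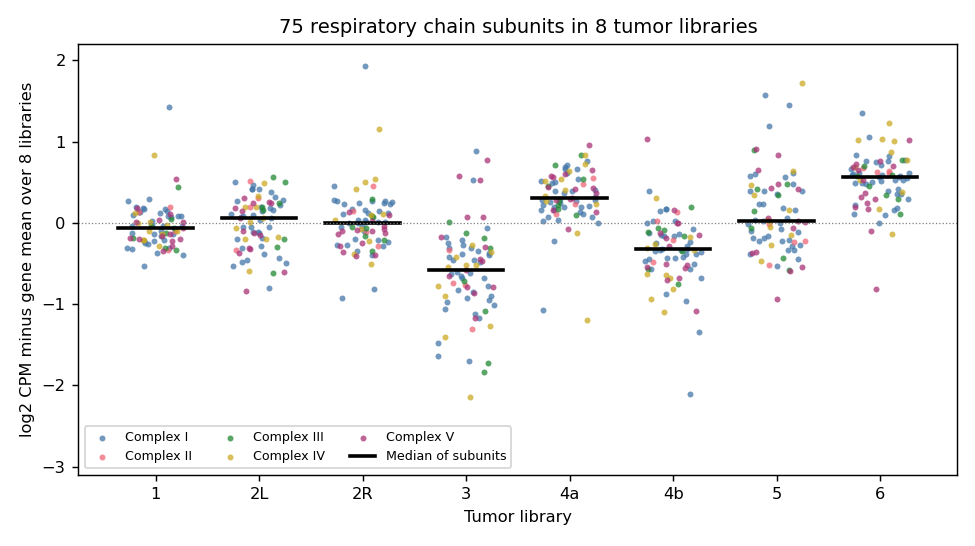
Each point is 1 of 75 subunits, colored by complex, as log2 CPM minus that gene's mean over the 8 tumor libraries, and black bars are library medians. The medians are 0.56 in tumor 6 and -0.58 in tumor 3, and the clouds of single genes overlap between all tumors.

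Complexes I, II, III and V had their lowest median in tumor 3, and complex IV in 4b. Complex IV ran from -0.63 in 4b to 0.78 in tumor 6, and complex II from -0.76 in tumor 3 to 0.63 in tumor 6. Complex V spanned the least, from -0.45 in tumor 3 to 0.41 in 4a. Within complex I, the 7 core subunits that carry out electron transfer spanned 1.07 and the 30 accessory subunits 1.11. The 8 assembly factors spanned 0.52, from -0.19 in tumor 3 to 0.34 in tumor 6.

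As a share of nuclear protein-coding counts, the 93 genes took 0.996% in tumor 6, 0.946% in 4a, 0.842% in 1, 0.800% in 5, 0.709% in 2L, 0.689% in 2R, 0.633% in 4b and 0.573% in 3. As a share of all counts they took 0.135% in tumor 3 (95% Wilson interval 0.132 to 0.138) and 0.927% in tumor 6 (0.923 to 0.931). These intervals cover counting error only. The 13 subunit genes of mitochondrial DNA took 18.7% of all counts in tumor 3 and 0.827% in tumor 6, so that they gave 138.8 counts for each nuclear member count in tumor 3 and 0.892 in tumor 6. Of those 13 genes, 5 or 6 were listed at 0 in each library.

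**Figure D2:**
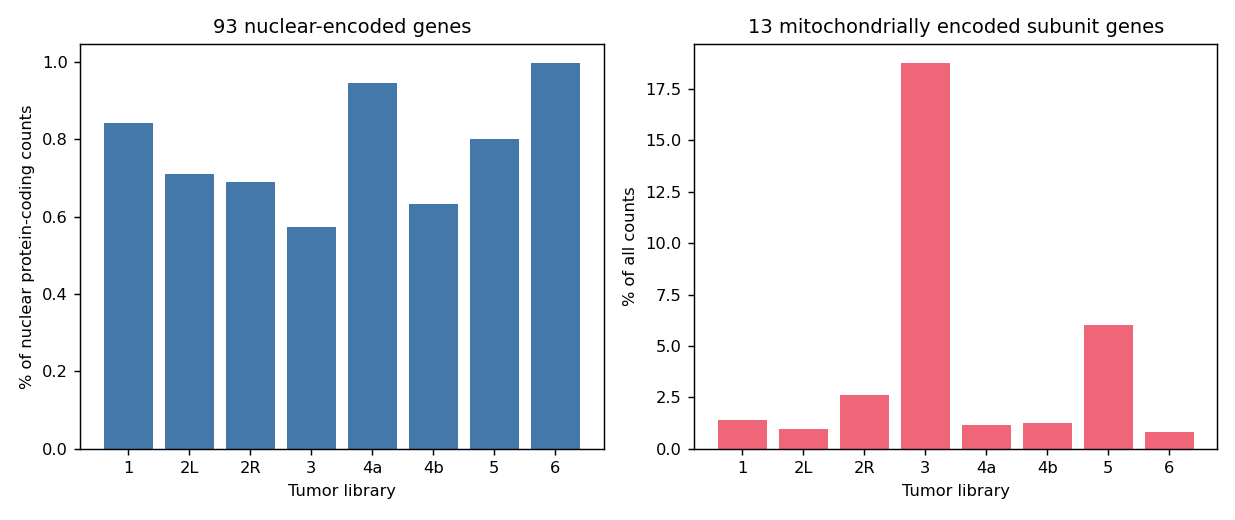
Bars give, for each tumor library, the counts of the 93 nuclear-encoded genes as a percent of nuclear protein-coding counts (left) and those of the 13 mitochondrially encoded subunit genes as a percent of all counts (right). Tumor 3 has the lowest left bar, 0.573%, and the highest right bar, 18.7%. The right bars come almost wholly from 7 of the 13 genes.

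Most subunits were higher in the tumor titled 4a than in 4b. Of the 75 subunits, 72 were higher in 4a than in 4b, against 48.7% of all genes kept, with a median difference of 0.66 on the log2 scale against -0.01 for all genes. Between 2L and 2R, 37 of 75 subunits were higher in 2L and the median difference was -0.02. With 1 library on each side, these differences have no replicate check.

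Transcript length moved with this pattern. The kept subunits have short coding transcripts, with a median of 918 bases against 3381 for other nuclear protein-coding genes. Other nuclear protein-coding genes of at most 1000 bases, 394 in all, had a median difference between 4a and 4b of 0.62, those of 1000 to 2000 bases 0.25 and those over 2000 bases -0.07. Subunits in the same 3 classes had 0.75, 0.57 and 0.45. In tumor 3 the short other genes stood at -0.29 and in tumor 6 at 0.25, while the 9 subunits over 2000 bases stood at -0.68 and 0.58. The part of transcript length in the result was not tested.

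**Figure D3:**
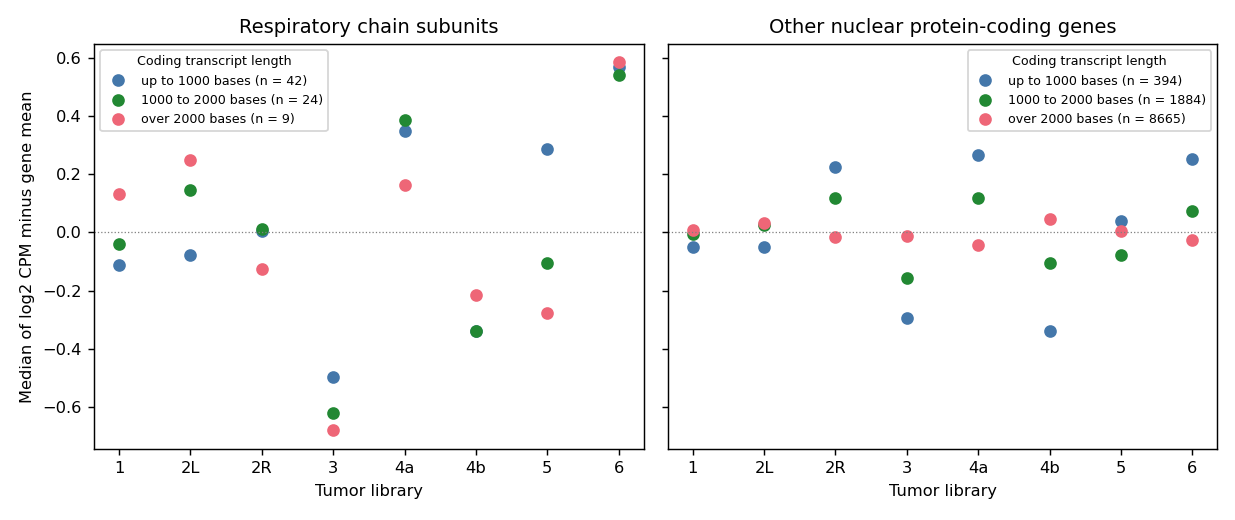
Points are medians of log2 CPM minus gene mean in each tumor library, for subunits (left) and other nuclear protein-coding genes (right), by length of the longest coding transcript. Short genes of both panels are higher in 4a than in 4b, and the 9 long subunits are at 0.58 in tumor 6 and -0.68 in tumor 3 while long other genes stay near 0.

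Complex I, the NADH dehydrogenase, had 37 kept subunits, and the highest library exceeded the lowest by 1.82 to 16.7 times, with a median of 2.62. The 16.7 was Ndufa4l2, followed by its homolog Ndufa4 at 7.56, and the largest of the others was 7.17, for Ndufa1. Of the 37, 23 were highest in tumor 6, 21 lowest in tumor 3 and 8 lowest in 4b. Among the core subunits, which hold the flavin and iron-sulfur centers, Ndufs1 had 123.6 CPM in tumor 6 and 43.1 in tumor 3, Ndufs8 42.3 and 10.1, and Ndufv1 56.8 and 50.6. Ndufs8 thus differed most and Ndufv1 least of these 3 between both tumors; they were chosen after their values were seen. Ndufa1, a small accessory subunit (chromosome X, 37187588 to 37191163), was the most abundant per length, at 121 ± 66.4 CPM per kb (SD, n = 8). Its CPM was 99.3 in tumor 5, 73.9 in 6, 57.9 in 2L, 56.8 in 4a, 48.4 in 2R, 34.6 in 1, 22.3 in 4b and 13.8 in 3. Tumor 5 was thus highest and tumor 3 lowest. Ndufa2 had 79.9 and Ndufb9 79.8 CPM per kb. The lowest kept subunit was the acyl carrier protein Ndufab1, at 1.32 ± 0.324 CPM per kb, and it was highest in tumor 3, at 12.8 CPM against 6.07 to 11.4 elsewhere. Ndufb7 was also highest in tumor 3, at 62.3 CPM against 26.5 to 39.4.

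Within complex I as the symbols give it, Ndufa4 and its homolog Ndufa4l2 varied most once the library median was taken out. Ndufa4l2 (chromosome 10, 127514967 to 127517154), known as a target of hypoxia signaling, had 119.9 CPM in 2R, 84.8 in 1, 80.2 in 6, 48.1 in 5, 23.3 in 2L, 14.8 in 4a, 9.59 in 3 and 7.18 in 4b. Tumors 2R, 1 and 6 formed the high end. Summed hypoxia response genes, 8 with a row in the table, were highest in the same 3 libraries, at 1939 CPM in 6, 1633 in 2R and 955 in 1, against 527 to 809 elsewhere. P4ha1 alone gave 1337 CPM in 6 and 908 in 2R. By the list median, as log2 CPM minus gene mean, 1 was at 0.82, 6 at 0.80 and 2R at 0.55, against -0.82 to 0.24 elsewhere. Of the 8 genes, 3 were highest in 1, 3 in 6, 1 in 2R and 1, Slc2a1, in tumor 3. The part of hypoxia was not tested. Ndufa4 was 145.6 CPM in tumor 5, 75.1 in 6, 65.4 in 2L, 55.9 in 1, 41.8 in 4a, 39.4 in 3, 25.7 in 2R and 19.3 in 4b, so tumor 5 stood highest.

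Complex II, succinate dehydrogenase, also belongs to the tricarboxylic acid cycle, and its 4 genes are known tumor suppressors in other tumor types. All 4 were highest in tumor 6. Sdha, the flavoprotein (chromosome 13, 74322254 to 74350280), had 193 CPM in tumor 6, a median of 137 and 75.1 in tumor 3. Sdhb, the iron-sulfur subunit, ran from 36.7 CPM in 4b to 81.9 in 6. The membrane anchors differed in level, Sdhd at 78.5 ± 24.6 and Sdhc at 15.6 ± 5.20 CPM per kb. Sdhc had 19.2 CPM in tumor 3, from 36 counts, and 40.6 to 73.4 in the other 7, with no overlap.

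Complex III, the cytochrome bc1 complex, was led by small subunits: Uqcrh at 112.6, Uqcr10 at 97.9 and Uqcr11 at 75.7 CPM per kb. By exon length the core protein Uqcrc1 was lowest, at 19.8. Its exons cover 4135 bases and its longest coding transcript 1653, so that place depends on the length used. All 8 subunits were higher in tumor 6 than in tumor 3, as were 69 of the 75 kept subunits and 49.9% of all genes kept. Uqcrc2, the other core protein (chromosome 7, 120635176 to 120659524), had 24.5 CPM in tumor 3, from 46 counts, and 83.7 to 149 in the other 7. Uqcrb, a small subunit near the quinone site, had 5.86 CPM in tumor 3, from 11 counts, and 17.7 to 36.8 elsewhere. Tumor 3 stood below all others for both genes. Uqcr11, in contrast, was lowest in 4b, at 27.7 CPM, and had 46.9 in tumor 3.

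Complex IV, cytochrome c oxidase, was led by Cox4i1 at 142 ± 42.8, Cox6b1 at 120 ± 56.0 and Cox7a2 at 116 ± 40.3 CPM per kb (SD, n = 8). Of the 11 kept, 7 were highest in tumor 6, 6 lowest in tumor 3 and 5 lowest in 4b. Cox4i1 ran from 172 CPM in 4b to 342 in 6. Cox5a was the lowest of the 11 kept by exon length, at 17.7 CPM per kb, and varied least, from 25.0 CPM in tumor 3 to 45.97 in 2L. Its exons cover 2101 bases and its longest coding transcript 645, so its place as lowest depends on the length used. Cox8a had 91.5 CPM in tumor 6 and 18.2 in 4b, with 20.8 in tumor 3.

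Complex V, ATP synthase, held the most abundant member of all, the catalytic beta subunit Atp5b (chromosome 10, 128083273 to 128090391), at 154 ± 51.8 CPM per kb. Atp5b had 1053 CPM in tumor 6, 803 in 4a, 736 in 2L, 670 in 1, 604 in 2R, 571 in 4b, 424 in 5 and 360 in 3. The alpha subunit Atp5a1, which forms the catalytic head with it, ran only from 272 CPM in 5 to 530 in 6 and had 431 in tumor 3. Of the 15 kept subunits, 6 were highest in tumor 6 and 5 each were lowest in tumors 3 and 4b. Per length Atp5a1 came next after Atp5b, at 133.3 CPM per kb, and then Atp5k, at 77.1. Atp5j was highest in tumor 3, at 82.0 CPM against 31.5 to 64.3. Atp5l (chromosome 9, 44912557 to 44920742) was lowest, at 0.787 CPM per kb, and highest in 4b, at 9.29 CPM.

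**Figure D4:**
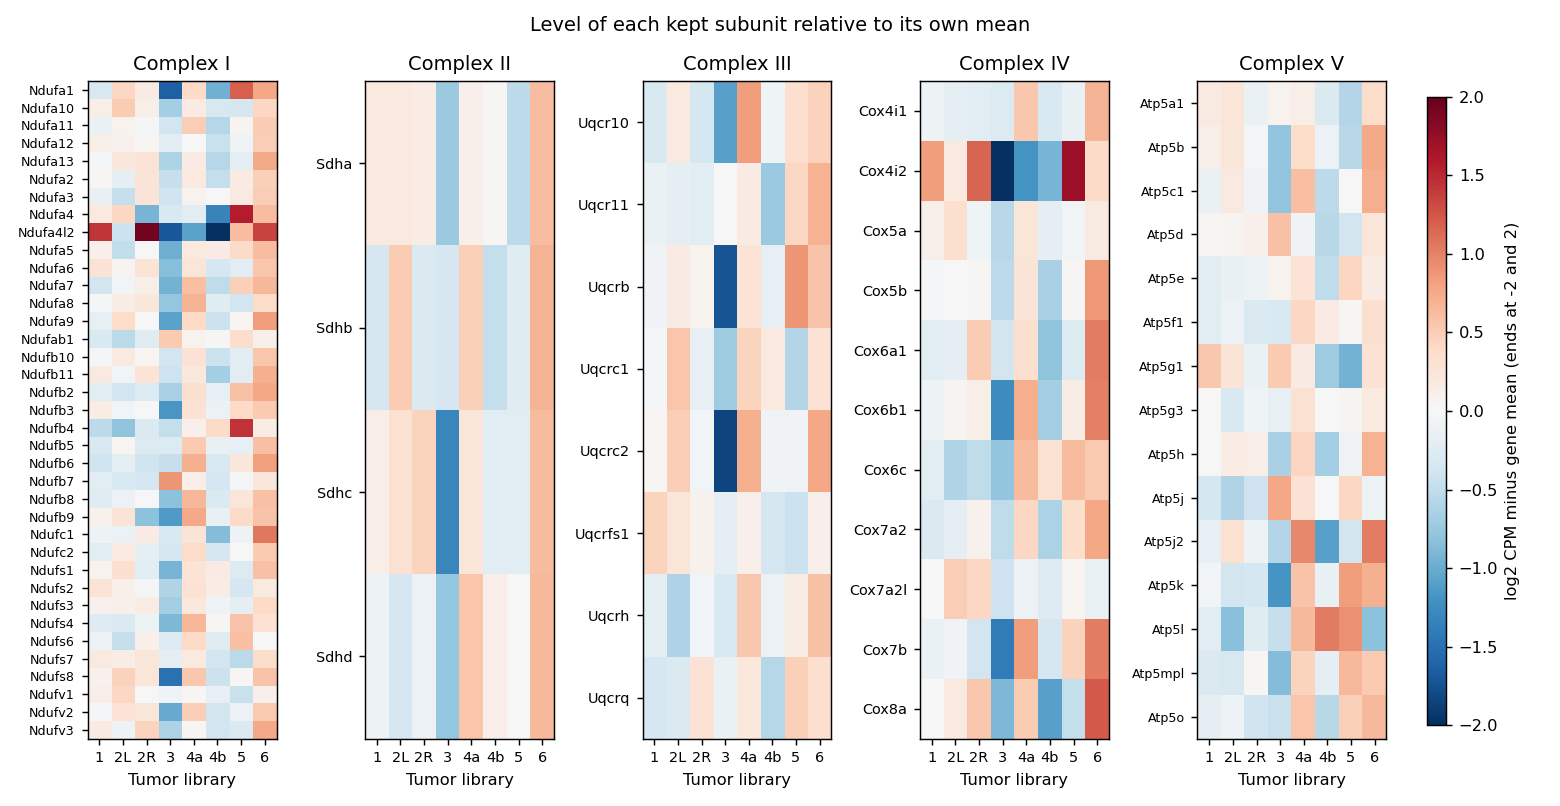
Colors give log2 CPM minus gene mean for each of the 75 kept subunits (rows, by complex) in each tumor library (columns); red is above and blue below the gene's mean. The column of tumor 6 is mostly red and that of tumor 3 mostly blue, with Ndufb7, Ndufab1 and Atp5j among the exceptions in tumor 3.

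Among assembly factors, Ndufaf1 was the most abundant, at 7.52 CPM per kb, and its CPM ran only from 9.03 in 2R to 13.9 in 6. Without any correction for the library, the SD of log2 CPM was largest for Ndufaf7, at 0.632, followed by Ndufaf3 at 0.541. Ndufaf7 ran from 5.33 CPM in tumor 3, from 10 counts, to 21.4 in 6. Ndufaf6 had the largest SD, 0.519, only after the library median of the kept subunits was taken out. Its uncorrected SD was 0.371, and its CPM ran from 2.66 in 2L to 6.13 in 1.

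Isoform shares compare paired subunits within a library, as a percent of their summed CPM per kb, and do not depend on scaling between libraries. Cox4i2 (chromosome 2, 152754173 to 152765037), the isoform known from lung and oxygen sensing, made up 29.4% of COX4 in tumor 5, 22.9% in 2R, 17.8% in 1, 12.8% in 2L, 8.42% in 6, 6.78% in 4b, 3.26% in 4a and 2.89% in 3. The mean was 13.04 ± 9.62% (SD, n = 8), and 7.62% with the length of the longest coding transcript or 7.34% with no length scaling. Its CPM was 40.6 in tumor 5 and 2.66 in tumor 3, the latter from 5 counts. Pericyte and smooth muscle markers, which go with cells known to express Cox4i2, summed to 920 CPM in tumor 5 and 1018 in 2L, against 266 to 689 elsewhere. Of the sum in tumor 5, 617 CPM was Rgs5, and only Rgs5 and Notch3 of the 9 markers were highest there. By the median of the list, as log2 CPM minus gene mean, 2L was at 0.79, 4a at 0.72, 5 at 0.54 and 2R at -0.95, so that 4a, with a low Cox4i2 share, was high and 2R, with a high share, was low. The part of these cells was not tested. Ndufa4l2 made up 85.5% of its pair in 2R, 65.7% in 1, 57.4% in 6 and 23.5 to 32.0% in the other 5, with a mean of 44.4 ± 22.3%. That mean was 31.9% with the length of the longest coding transcript and 39.8% with no length scaling. Exons of Ndufa4 cover 1381 bases and its longest coding transcript 610, so the share in each library depends on the length used.

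Cox6a2 and Cox8b, isoforms of muscle, had their highest shares in 2L, the library with the most muscle RNA. Cox6a2 (chromosome 7, 128205435 to 128206387) was 14.9% of COX6A in 2L and at most 1.09% elsewhere. By counts, 244 of 1680 were Cox6a2 in 2L, 14.5% (95% exact interval 12.9 to 16.3). Cox8b (chromosome 7, 140898945 to 140900446) was 25.8% of COX8 in 2L and 18.1% in tumor 3, the latter from 5 of 44 counts, 11.4% (3.79 to 24.6). It was 0 in 4a, 4b and 6. Cox7a1, the muscle and brown fat isoform of COX7A, was 11.4% in 2L, 10.4% in 6 and 0.784 to 4.90% in the others, and its CPM was higher in 6, at 11.7, than in 2L, at 6.62. With no length scaling its mean share was 2.72% in place of 4.64%. In tumor 6, where muscle genes summed to only 21.3 CPM, the brown fat gene Ucp1 had 68.7 CPM. Cidea, of the same fat list, went the other way, with 0.122 CPM in tumor 6 and 74.0 in 3, 52.9 in 2L and 36.9 in 5. Adipoq and Plin1, which mark fat cells, had 0 counts in tumor 6, as had Lep and Cfd, and Plin4 had 6.63 CPM. The part of fat cells was not tested. Without 2L, the mean share of Cox6a2 was 0.363% in place of 2.18%, and that of Cox8b 2.79% in place of 5.66%. With no length scaling the mean share of Cox8b was 3.63%.

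Isoforms known from testis were scarce. Cox6b2 was 5.74% of COX6B in 2R and 0.591 to 2.09% elsewhere, Cox7b2 at most 1.32% of COX7B, and Cox8c had 0 counts in every library, which allows up to 0.0257 CPM over all 8. With no length scaling the mean share of Cox6b2 was 2.73% in place of 1.77% and that of Cox7b2 0.148% in place of 0.331%. The 5 male germ cell markers summed to at most 0.105 CPM. The c ring of ATP synthase can be made from 3 genes that encode the same mature protein, and Atp5g3 held 95.7 ± 1.42% of their summed CPM per kb, Atp5g1 2.90 ± 1.10% and Atp5g2 1.35 ± 0.718%. Both Atp5g1 and Atp5g2 have annotated near-identical copies, so their low shares are uncertain.

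**Figure D5:**
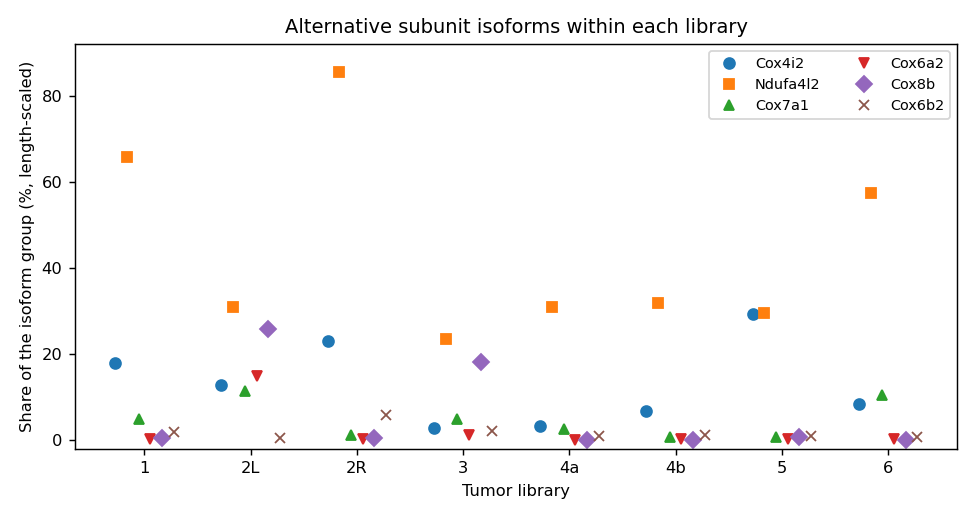
Points give the share of each alternative isoform in its isoform group, in percent of summed CPM per kb, for each tumor library. Ndufa4l2 reaches 85.5% in 2R, Cox4i2 29.4% in tumor 5, and Cox8b and Cox6a2 have their highest shares, 25.8% and 14.9%, in 2L.

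Members were also counted by whether a library lay at least 2-fold above or below the median of the other 7. Tumor 3 had 22 of 83 members below (26.5%), where 20.1% of all genes kept were below, and 1 above, Ndufb7, where 18.6% of all genes were above. Tumor 6 had 7 above (Atp5j2, Cox6a1, Cox7b, Cox8a, Ndufa4l2, Ndufb6 and Ndufc1), 8.43% against 6.3% of all genes, and 0 below against 10%. Tumor 5 had 6 above, among them Cox4i2, Ndufa1, Ndufa4 and Ndufb4, against a background of 5.45%, and 1 below, Atp5g1, against 3.3%. In 4b, 6 members were below, among them Cox8a, Ndufa1 and Ndufa4, 7.23% against 4.43%, and 1 above, Atp5l, against 3.36%.

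The other 4 libraries had few such members. Tumor 4a had Atp5j2 and Ndufb6 above, against 2.61% of all genes, and Cox4i2 and Ndufa4l2 below, against 3.47%. Tumor 2R had Ndufa4l2 above, against 5.04%, and Ndufa4 and Ndufb9 below, against 4.05%. Tumor 1 had Ndufa4l2 above, against 4.35%, and 0 below, against 5.87%. Tumor 2L had 0 above, against 7.89%, and Ndufa4l2 below, against 5.76%.

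Within the pairs of the same number, 17 of 83 members (20.5%) were at least 2-fold higher in 4a than in 4b, where 2.53% of all genes kept were, and 0 were lower, where 1.92% were. The 17 included Atp5c1, Atp5h, Atp5j2 and Atp5o of ATP synthase and Cox6a1, Cox6b1, Cox7a2, Cox7b and Cox8a of complex IV. In 2L, Ndufa4 and Ndufb9 were higher than in 2R, against 9.03% of all genes, and Ndufa4l2 was lower, against 8.33%.

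The numbers 1 to 6 of the titles are the only split the labels offer, and a test among them rests on the spread within 2L and 2R and within 4a and 4b, with 2 residual degrees of freedom. At an adjusted p under 0.05, edgeR's quasi-likelihood test called 0 of 83 members, and 0.0% of all 11505 genes. At an unadjusted p under 0.05 it had 8 members (9.64%) against 24.5% of all genes. Cox4i2 had the smallest p among members (0.0078, adjusted p = 0.124 by edgeR). DESeq2's likelihood ratio test called 3 members, Cox4i2, Ndufa4l2 and Ndufb4, with 20.7% of all genes called. Cox4i2 had an adjusted p of 6.12e-05 there.

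Leaving out either library of the first pair changed the edgeR result. Without 2L, 10 members (12.05%) were called, where 38.7% of all genes were, and without 2R 10 members (11.9%), where 39.3% were. Called in both were Atp5k, Atp5l, Cox4i2, Cox6c, Ndufa4, Ndufa4l2, Ndufb4, Uqcrb and Uqcrc2. The spread then rests on 4a and 4b alone. Several genes called in both have annotated near-identical copies: Atp5l 8, Uqcrb 3, Cox6c 2, and Atp5k and Ndufb4 1 each. Ndufb4 was also called by DESeq2. Reads shared with a copy may have been dropped or split, so the calls of these genes are uncertain.

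Other lists of metabolism genes were read on the same scale. The 11 tricarboxylic acid cycle genes had a median level, as log2 CPM minus gene mean, of 0.42 in tumor 6 and 0.35 in 2L. It was -0.26 in tumor 3 and -0.27 in tumor 5, the lowest. By edgeR, 0 of these 11 had an unadjusted p under 0.05, where 24.5% of all genes kept did. The same held for 8 of 13 kept glycolysis genes, 5 of 10 kept regulators and 4 of 6 macrophage markers, which did have such a p. The 13 kept glycolysis genes were at 0.61 in tumor 6 and -0.67 in 4b. The 10 kept regulators of mitochondrial genes had their highest median in tumor 3, at 1.18, where the subunits had their lowest. Of the 10, 7 were highest in tumor 3, where 29.6% of all genes kept were, while Gabpa and Gabpb1 were highest in 4b and Tfam in 4a. The coactivator Ppargc1a, a known inducer of respiratory genes, had 70.8 CPM in tumor 3, 50.04 in 6 and 2.19 to 14.4 in the other 6. Of the genes the symbols miss, Cyc1 ran from 39.4 CPM in 2R to 93.7 in tumor 3. The 6 macrophage markers were at 1.35 in tumor 6 and -1.62 in tumor 3, the same 2 ends as the subunits; their part was not tested.

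The filter left out 10 members: Cox7c, Cox8b, Ndufs5, Cox6a2, Cox8c, Cox7b2, Cox6b2, Atp5s, Atp5g2 and Cox7a1. Cox7c and Ndufs5 belong to the complexes of most tissues, yet had only 3.46 ± 3.09 and 2.16 ± 0.865 CPM (SD, n = 8). Both have annotated genes whose sequence matches their coding sequence at 95% identity or more over at least 80% of it. Of the 84 subunits, 21 have such copies, most of them pseudogenes, and 4 have at least 3, namely Atp5l with 8 and Atp5h, Cox7c and Uqcrb with 3. Median level was 28.4 CPM per kb for the 63 without a copy and 18.6 for the 21 with one. Reads shared with a copy may have been dropped or split, so these low levels are uncertain. The level of Atp5l also depends on length, since its exons cover 6443 bases and its longest coding transcript 544.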

How the data were processed

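The authors deposited raw whole-number counts for 49671 Ensembl genes in 8 libraries. The tools named in the submitters' processing notes are RSEM, featureCounts, STAR 2.7.5a and cutadapt, with build mm10; their order, strand and multimapping handling are not given in the sources used here, so a gene's reads cannot be separated from those of an overlapping or antisense partner. GENCODE M21 named 49412 identifiers; the rest held at most 0.0215% of a library. Members and gene lists were chosen with earlier results of these data known. Named genes were, per complex, the 3 highest per length, the lowest kept and the 2 most variable, with all of complex II, isoform groups, genes not kept and the smallest p.

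With edgeR 4.0.16 in R 4.3.3, filterByExpr (minimum count 10) kept 11505 genes; TMM factors and a prior count of 2 gave log2 CPM. Differences among title numbers used the edgeR quasi-likelihood test, Benjamini-Hochberg adjusted over all genes kept, with DESeq2 1.42.0 as an alternative; only edgeR was checked on simulated counts. Copies were searched with blastn 2.17.0+ among annotated transcripts; the search by coding sequence, the length classes and the start codon check were chosen after seeing the data. Levels per kb used all exons of a gene. Other scalings, filters, lengths, folds and leaving out each library were tried.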

Additional observations from a re-analysis of the deposited data

Results flagged for a closer look

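For each member and isoform share, the gap between the most extreme library and its nearest neighbor was set against the whole range of the 8 libraries; chance alone gives about 1 in 20 such values, and 9 of 94 series passed. In library 3, log2 CPM was far below the other 7 for Uqcrb (2.58), Ndufaf7 (2.45), Ndufb3 (2.71), Uqcrc2 (4.62) and Sdhc (4.27), and far above them for Ndufb7 (5.96). The share of Cox6a2 in 2L was 14.9%, that of Cox6b2 in 2R 5.74% and that of Atp5g2 in library 3 2.90%. Library 3 has the fewest counts, and 31.2% of all genes kept had their lowest value there and 29.6% their highest. The rule was read for members and isoform shares only. The 9 of 94 therefore has no share over all genes beside it and is not a result about the members.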

How the results depend on the processing

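The number of genes differing among title numbers was 0 of 11505 with edgeR, 6260 of 30321 with no filter on low counts and 2383 of 11505 with DESeq2. With 1 library left out it was 0 to 4548. For members the counts were 0 of 83, 24 of 92, 3 of 83 and 0 to 10. The span of subunit levels was 1.14, and 2.81 with library totals and no factor, a scaling that moved the median of all genes to -1.34 in library 3; relative to that median it was 1.11, an alternative chosen after seeing the data. Nuclear protein-coding totals moved the median of all genes to 0.19 in tumor 1 and -0.16 in tumor 6, with a span of 0.869, and relative to that median, again chosen after seeing the data, 1.12. Tumor 6 stayed highest and tumor 3 lowest under each scaling run. With 1 library left out the span was 0.869 to 1.15. Also chosen after seeing the data, subunits with coding transcripts over 2000 bases gave 1.26 and those without an annotated copy 1.17. Of 664 member-library values, 53 were at least 2-fold from the other libraries, 152 with library totals, 180 at a fold of 1.5 and 38 to 61 with 1 library left out. The shares of all genes kept are given above for each library at 2-fold. No such share is given for the pooled count or the other settings, so these counts show only how the setting matters. Between 2L and 2R the counts were 3, 17 with library totals and 11 at a fold of 1.5; between 4a and 4b they were 17, 29 and 45. With coding length, complex levels were 32.4, 46.2, 50.7, 80.8 and 75.5 CPM per kb for I to V, and complex V was 32.3 to 40.04 with 1 library left out. The Atp5g1 share was 1.03% with coding length and 6.30% with none, and that of Atp5g3 97.9% and 92.7%. Mean CPM of 75 of 83 members moved when scaled to the nuclear protein-coding total, and of 2 without library 3. No paired analysis was possible because the labels give 1 group. Depth limits library 3 most.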
